A study of Homo sapiens with 6 samples.

Results

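NRF2 ChIP-seq signal at 5 genes, NDUFS7, PARP2, PWP1, TMEM131L and EEF1A1, was examined in HMC3 cells, a human line of microglial origin. The genes were chosen by name from these data as having peaks that do not respond to CDDO-Im. That description held less well for PARP2, whose libraries differed widely, and NDUFS7 had a weaker second region listed with vehicle alone. All peaks with a summit inside one of the genes or within 10 kb of either end were then collected. They numbered 21 of the 28132 peaks deposited and formed 6 of 19331 joined regions, and the genes are 5 of 19974 protein-coding genes. No numerical threshold was part of the choice. The comparison of CDDO-Im with vehicle at these peaks is therefore a description, with no test.

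The samples were 2 libraries from cells given CDDO-Im, at 30 nM for 4 h by the labels, and 2 vehicle libraries. All 4 were immunoprecipitated from HMC3 cells with 1 NRF2 antibody. The treatment text in the labels names CDDO-Im for every sample, so groups were taken from sample titles, and nothing says that replicates came from separate cultures. The 2 input samples were not analysed here.

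NRF2 is a transcription factor that the adaptor KEAP1 holds low in unstressed cells by directing its degradation. CDDO-Im is a synthetic triterpenoid that acts on KEAP1 and lets NRF2 accumulate. NRF2 then binds antioxidant response elements together with small MAF proteins and drives antioxidant, detoxification and iron-handling genes such as HMOX1, NQO1 and FTH1. The 5 genes described here have other main functions. NDUFS7 encodes an iron-sulfur subunit of mitochondrial complex I, and PARP2 a poly(ADP-ribose) polymerase of DNA strand break repair. PWP1 encodes a WD-repeat protein of ribosome biogenesis, TMEM131L a transmembrane protein, and EEF1A1 the elongation factor that brings aminoacyl-tRNA to the ribosome.

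At 3 of the 5 genes (PARP2, TMEM131L and EEF1A1) the peaks lay at a gene end. The promoter windows of PARP2 and EEF1A1 are shown because every peak summit of these genes fell inside them. RefSeq (GRCh38.p14) gives each as 300 bases, 250 before and 50 after the gene's start, and 4 of the 5 genes matched that table. TMEM131L is named only. Capitals mark the 21 bases centred on the summit of each library.
PARP2: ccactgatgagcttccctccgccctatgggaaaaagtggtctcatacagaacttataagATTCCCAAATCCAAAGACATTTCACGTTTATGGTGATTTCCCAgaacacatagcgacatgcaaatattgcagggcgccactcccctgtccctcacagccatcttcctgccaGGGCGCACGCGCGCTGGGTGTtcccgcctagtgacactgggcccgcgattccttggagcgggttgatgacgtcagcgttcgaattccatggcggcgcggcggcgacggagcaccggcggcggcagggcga
EEF1A1: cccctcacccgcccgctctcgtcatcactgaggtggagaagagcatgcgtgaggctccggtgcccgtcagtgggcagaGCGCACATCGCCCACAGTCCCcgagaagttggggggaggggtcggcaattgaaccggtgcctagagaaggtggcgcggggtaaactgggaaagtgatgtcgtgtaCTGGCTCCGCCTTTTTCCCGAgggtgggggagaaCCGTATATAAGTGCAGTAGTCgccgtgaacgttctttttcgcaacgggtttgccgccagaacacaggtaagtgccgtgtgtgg
The PARP2 window is chr14:20343385-20343684 on the plus strand, and the EEF1A1 window is chr6:73520983-73521282 on the minus strand. In the PARP2 window the summits were at base 92 (CDDO-Im 1), base 70 (CDDO-Im 2), base 181 (vehicle 1) and base 79 (vehicle 2), counted from 1 at the 5′ end. In the EEF1A1 window they were at base 89 (CDDO-Im 1), base 228 (CDDO-Im 2) and base 194 (vehicle 1). Neither window held the antioxidant response element core TGACNNNGC, the AP-1 motif TGAGTCA or the E-box CACGTG on either strand. Of the 35116 promoter windows in the table, 13.3% held the first, 4.95% the AP-1 motif and 7.26% the E-box. The windows of NDUFS7 and PWP1 held no summit. The NDUFS7 window held 1 E-box, and the first of the 2 PWP1 windows held 1 E-box and 1 antioxidant response element core. A match or its absence describes the letters of a window and nothing more.

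The signal at a summit is given as tags, the number of sequenced fragments over it, worked out from the authors' fold enrichment with its −log10 p. For comparison across libraries, tags were divided by the library's genome-wide background. That background, used as the measure of depth, was 0.332 and 0.367 tags in the CDDO-Im libraries and 0.316 and 0.315 tags in the vehicle libraries. Depth can also be taken as that background over the shortest listed peak, which was 206 and 177 bp with CDDO-Im and 201 and 169 bp with vehicle. Differences between replicates depend on this choice and are given here without division by that width. The peak lists held 4024 and 12433 peaks with CDDO-Im, against 4227 and 7448 with vehicle. In each of the 4 libraries the fewest tags of a listed peak, where the local background was at the genome-wide level, were 4. Because tags at a summit are few, intervals are exact 95% binomial intervals on summed tags, and they cover counting error only.

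NDUFS7 had the highest mean signal of the 5 genes in each group, with little spread between libraries. Its main region lay inside the gene (chr19:1393089-1393462, hg38), 2305 bp from the nearer end. It held 34 and 32 tags in the CDDO-Im libraries, against 33 and 30 tags in the vehicle libraries. Over background these were 103 and 87.1 with CDDO-Im and 105 and 95.4 with vehicle, and the groups overlapped. The means were 94.8 ± 10.9 with CDDO-Im and 100.0 ± 6.51 with vehicle (SD, n = 2 each). The ratio of CDDO-Im to vehicle was 0.946 as a ratio of geometric means. From the summed tags, 66 with CDDO-Im and 63 with vehicle, it was 0.944 with an interval of 0.658 to 1.36.

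The deposited values of the NDUFS7 peak, which are the authors', ranked it differently within each list. Its fold enrichment was 25.3 and 18.7 in the CDDO-Im libraries and 24.9 and 18.4 in the vehicle libraries. It was peak 112 and peak 600 by fold enrichment in the CDDO-Im lists, and peak 3 and peak 18 in the vehicle lists. As a share of its list, the rank was 2.78% and 4.83% with CDDO-Im, against 0.0710% and 0.242% with vehicle. The peak thus stood lower in the CDDO-Im lists at nearly equal fold enrichment. A rank depends on the other peaks of a list, so it shows no change of the NDUFS7 signal itself. The −log10 p was 54.8 and 41.2 with CDDO-Im and 53.5 and 39.3 with vehicle, and the −log10 q was 49.4 and 36.5 against 47.5 and 33.5. Each CDDO-Im library was close to the vehicle library with the same number and farther from its own replicate. The recovered local background moved with that pattern. It was 1.16 and 2.07 times the genome-wide background in CDDO-Im 1 and 2, and 1.16 and 2.17 times in vehicle 1 and 2.

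NDUFS7 also had a weaker region listed with vehicle and not with CDDO-Im. It lay inside the gene (chr19:1390963-1391271), 4459 bp from the nearer end, and held 7 tags in vehicle 1 and 8 in vehicle 2, or 22.2 and 25.4 over background. The fold enrichment in vehicle 1 and 2 was 5.82 and 6.85, the −log10 p 8.17 and 10.2, and the −log10 q 3.95 and 6.01. Neither CDDO-Im library listed a peak there, which does not show that signal was absent. Outside dense megabases, which are those with more than 20 joined regions, 4 of 7386 regions (0.0542%) were listed by both vehicle and neither CDDO-Im library, and this was 1 of the 4. Within 10 kb of the main summit lie GAMT, which encodes an enzyme of creatine synthesis, at 3747 bp, and the tRNA genes TRF-GAA1-6 and TRN-GTT2-6 at 9845 and 9643 bp.

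TMEM131L had signal of similar size in every library, at one point. The region (chr4:153466095-153466473) crossed the gene end with the lower coordinate, with summits 74 to 79 bp outside it. It held 16 and 14 tags in the CDDO-Im libraries, against 15 and 17 tags in the vehicle libraries. Over background these were 48.2 and 38.1 with CDDO-Im and 47.5 and 54.0 with vehicle, so the groups overlapped, with CDDO-Im 1 between the vehicle libraries and CDDO-Im 2 below both. The means were 43.2 ± 7.17 with CDDO-Im and 50.8 ± 4.60 with vehicle (SD, n = 2 each), a ratio of 0.846. The interval on the summed tags, 30 with CDDO-Im and 32 with vehicle, was 0.496 to 1.44. The local background equalled the genome-wide background in all 4 libraries.

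The deposited fold enrichment at TMEM131L was 12.8 and 10.97 with CDDO-Im and 12.2 and 13.7 with vehicle. The −log10 p was 22.8 and 18.8 with CDDO-Im and 21.5 and 24.98 with vehicle, and the −log10 q was 18.4 and 14.7 against 16.4 and 19.7. No other gene of the RefSeq table lay within 10 kb of the summit.

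PWP1 had a weak region deep inside the gene (chr12:107695808-107696177), about 10 kb from its nearer end (10208 bp). It held 10 and 18 tags in the CDDO-Im libraries, against 11 and 11 in the vehicle libraries. Over background these were 30.2 and 49.0 with CDDO-Im and 34.9 and 35.0 with vehicle, so CDDO-Im 1 lay below both vehicle libraries and CDDO-Im 2 above both. The means were 39.6 ± 13.3 with CDDO-Im and 34.9 ± 0.0781 with vehicle (SD, n = 2 each), a ratio of 1.1. Here depth sets a wide limit: from 28 summed tags with CDDO-Im and 22 with vehicle, the interval was 0.633 to 2.10.

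The deposited fold enrichment at PWP1 was 6.98 and 13.5 with CDDO-Im and 6.20 and 8.91 with vehicle. The −log10 p was 10.5 and 24.7 with CDDO-Im and 9.41 and 14.3 with vehicle, and the −log10 q was 6.52 and 20.5 against 5.01 and 9.80. The vehicle libraries thus had equal tags but unequal fold enrichment. Their local background was 2.96 and 1.1 times the genome-wide background, and that of the CDDO-Im libraries 1.73 and 1.1 times.

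PARP2 did not have similar signal across libraries, and its groups overlapped because replicates of each group differed. The region (chr14:20343285-20343775) crossed the gene's start, with summits 70 to 181 bp outside the gene. It held 15 and 52 tags in the CDDO-Im libraries, against 26 and 9 tags in the vehicle libraries. Over background these were 45.2 and 142 with CDDO-Im and 82.4 and 28.6 with vehicle. CDDO-Im 2 was the highest and vehicle 2 the lowest, so the extremes carried the same replicate number. The means were 93.4 ± 68.1 with CDDO-Im and 55.5 ± 38.0 with vehicle (SD, n = 2 each).

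The ratio of CDDO-Im to vehicle at PARP2 was 1.65 but depended on which library was counted. It was 2.92 without CDDO-Im 1, 0.932 without CDDO-Im 2, 2.80 without vehicle 1 and 0.971 without vehicle 2. Between same-numbered libraries it was 0.549 for number 1 and 4.95 for number 2. The interval on the summed tags, 67 with CDDO-Im and 35 with vehicle, was 1.13 to 2.68, and it leaves out the difference between replicates. CDDO-Im 2 held 3.13 times the signal of CDDO-Im 1, and none of the 230 regions listed by all 4 libraries outside dense megabases differed more between the CDDO-Im libraries. Vehicle 1 and 2 differed 2.88-fold, and 1 of the 230 regions differed more between the vehicle libraries. The median difference over these regions, in either direction, was 1.41-fold between the CDDO-Im libraries and 1.25-fold between the vehicle libraries. With direction kept, the median of CDDO-Im 2 over CDDO-Im 1 was 1.40 and that of vehicle 2 over vehicle 1 was 1.13. CDDO-Im 2 over CDDO-Im 1 was 1.62 at PWP1, 0.850 at NDUFS7 and 0.790 at TMEM131L.

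The deposited fold enrichment at PARP2 was 11.5 and 35.5 with CDDO-Im and 19.7 and 7.03 with vehicle. The −log10 p was 20.1 and 86.1 with CDDO-Im and 39.8 and 10.5 with vehicle, and the −log10 q was 15.7 and 80.8 against 34.1 and 6.26. By fold enrichment it was peak 774 and peak 131 in the CDDO-Im lists, and peak 7 and peak 1356 in the vehicle lists. The local background was 1.17 and 1.35 times the genome-wide background in CDDO-Im 1 and 2 and 1.18 and 1.35 times in vehicle 1 and 2, so it did not move with the tags. The region also overlapped RPPH1, the gene of the RNA component of RNase P, which trims the 5′ end of tRNAs. The edge of RPPH1 with the higher coordinate, whichever end of the gene that is, lies 224 bp before PARP2 begins. The CDDO-Im 2 summit was 43 bp from RPPH1 and 181 bp from PARP2, and a peak there cannot be given to either gene. Of the 230 regions, 1 had a summit within 1000 bp of a small structural RNA gene, and it was this one.

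**Figure D1:**
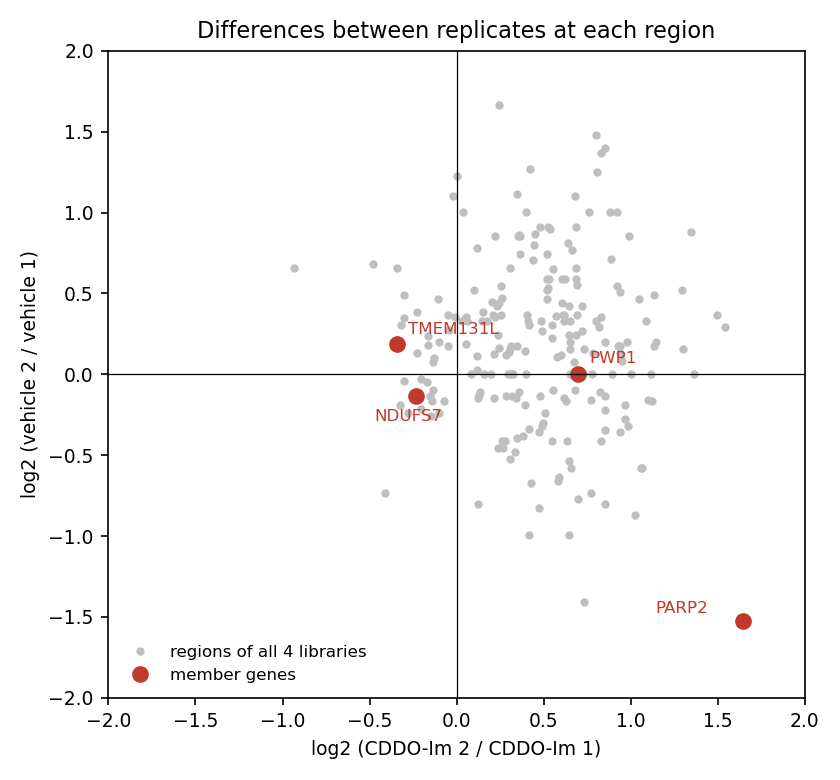
Each point is a region listed by all 4 libraries outside dense megabases, with the log2 ratio of CDDO-Im 2 to CDDO-Im 1 on the x axis and of vehicle 2 to vehicle 1 on the y axis. PARP2 (3.13-fold higher in CDDO-Im 2 than in CDDO-Im 1, and 2.88-fold apart between the vehicle libraries) stands at the lower right edge, while NDUFS7 and TMEM131L lie near the centre and PWP1 within the cloud.

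EEF1A1 had the weakest signal of the 5 genes, and vehicle 2 listed no peak. The region (chr6:73520898-73521229) crossed the gene's start, with summits 23 to 162 bp outside the gene. It held 8 and 8 tags in the CDDO-Im libraries, against 7 tags in vehicle 1. Over background these were 24.1 and 21.8 with CDDO-Im and 22.2 in vehicle 1, which lay between the CDDO-Im libraries, a ratio of 1.03. The deposited fold enrichment was 6.76 and 6.58 with CDDO-Im and 6.08 in vehicle 1, the −log10 p 10.0 and 9.62 against 8.73, and the −log10 q 6.07 and 6.03 against 4.42. With 1 vehicle library and at most 8 tags, no interval was computed. The antisense gene EEF1A1-AS1 lay 2417 bp from the summit. RefSeq names 49 EEF1A1 pseudogenes. The summits lay outside the gene, and whether reads there are shared with such copies was not tested, so the tags may be uncertain.

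**Figure D2:**
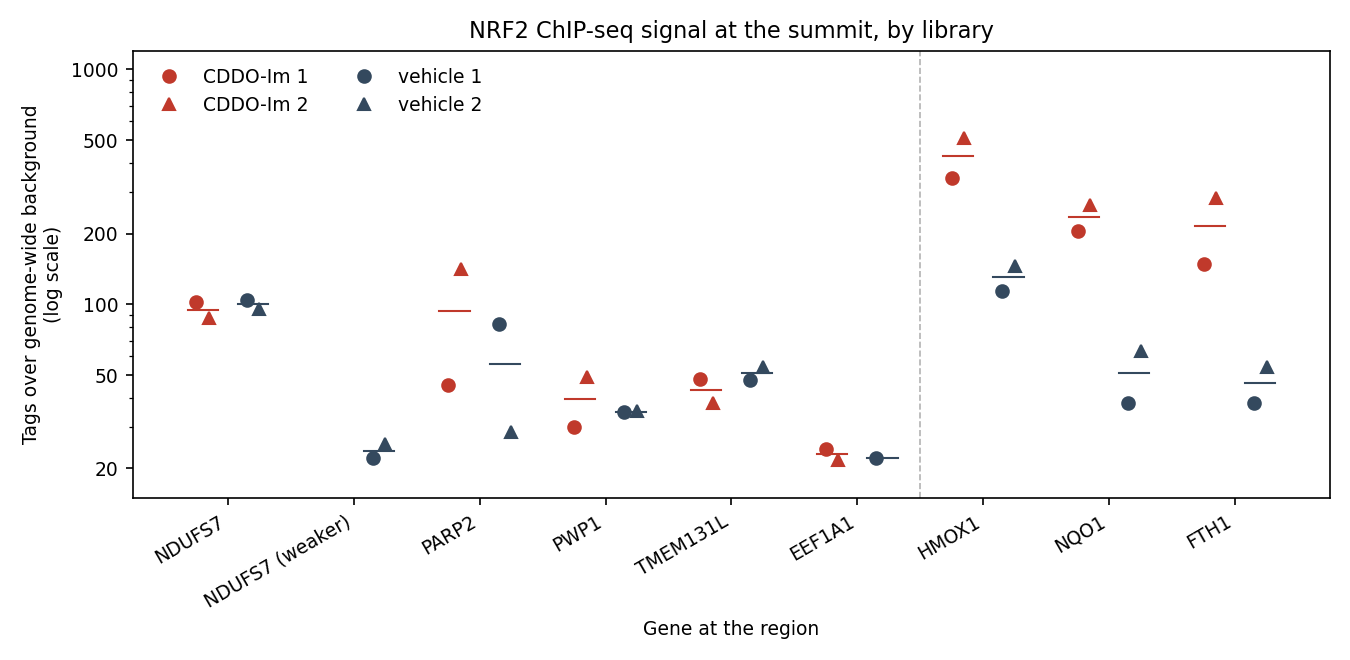
Tags at the summit over the genome-wide background (log scale) in each library are shown for the 6 regions at the 5 genes and, right of the dashed line, for the strongest region at HMOX1, NQO1 and FTH1; short lines mark group means. CDDO-Im and vehicle points overlap at every region left of the line that both groups list, and do not overlap at the 3 known NRF2 targets.

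For scale, HMOX1, NQO1 and FTH1 were measured the same way; they had the 3 highest ratios of the 4 known NRF2 targets with a region of all 4 libraries, above SLC48A1 (2.68). The strongest HMOX1 region held 114 and 188 tags with CDDO-Im, against 36 and 46 with vehicle, a ratio of 3.25 over background with an interval of 2.59 to 4.29 on summed tags. The ratio was 4.73 at NQO1 (interval 3.17 to 7.02) and 4.51 at FTH1 (3.18 to 7.34). None of these intervals includes the spread between replicates, and they were not tested against those of the chosen genes.

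The 230 regions served as background. Signal was higher in each CDDO-Im library than in either vehicle library at 200 of them (87%), lower at 9 (3.91%), and overlapping between the groups at 21 (9.13%). The median ratio was 3.21, with quartiles of 2.35 and 3.89. These values include 21 regions with a vehicle level above 200 times background, all with a ratio between 0.764 and 1.04. Of the 4 regions at NDUFS7, PARP2, PWP1 and TMEM131L, 0 had both CDDO-Im libraries above or below, and all 4 overlapped, as the choice of genes set. Without CDDO-Im 1, 2 of the 4 (PARP2 and PWP1) were higher with CDDO-Im, and without vehicle 1 only PARP2 was. The ratio lay within 1.5 times of 1 in 30 of the 230 regions (13%) and in 3 of these 4. EEF1A1 belongs to the 458 regions that both CDDO-Im libraries and 1 vehicle library listed, and in 424 of these (92.6%) the vehicle library was the lowest.

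The 4 regions therefore stood at different places in the order of signal in each group. By mean signal, highest first among the 230 regions, NDUFS7 was number 162 with CDDO-Im and number 27 with vehicle. TMEM131L was number 229 with CDDO-Im and number 62 with vehicle. PWP1 was number 230 with CDDO-Im, the lowest of all, and number 135 with vehicle. PARP2 was number 164 with CDDO-Im and number 51 with vehicle.

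**Figure D3:**
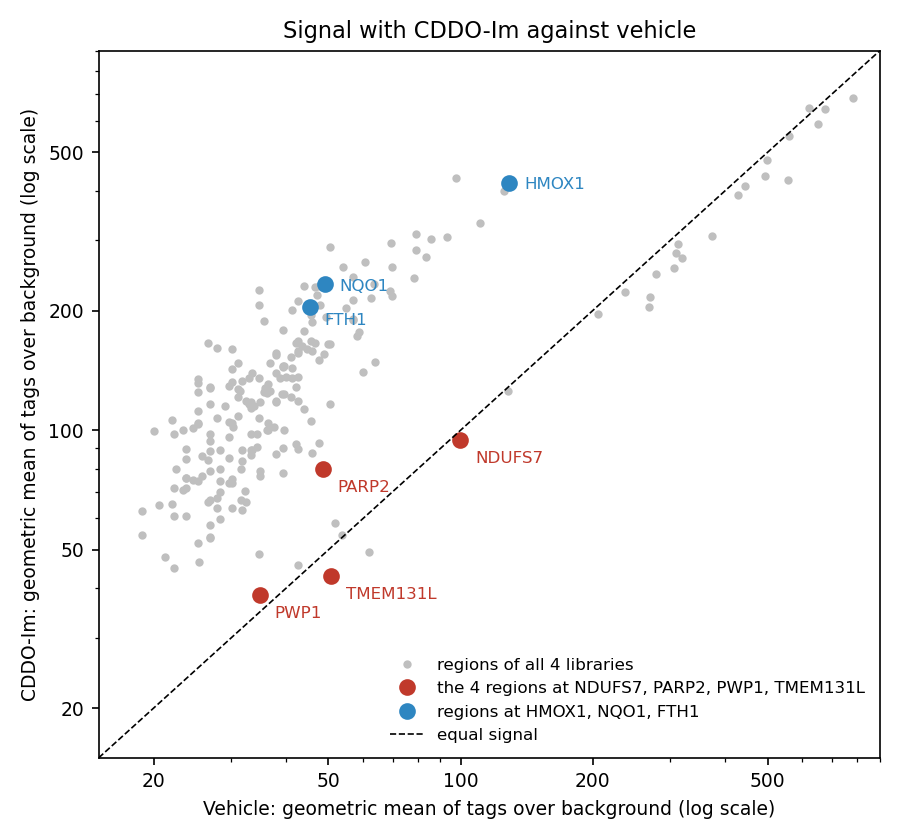
Each grey point is a region listed by all 4 libraries outside dense megabases, with the geometric mean of tags over background in the vehicle libraries on the x axis and in the CDDO-Im libraries on the y axis (both log scales). NDUFS7, PWP1 and TMEM131L (ratios of 0.946, 1.1 and 0.846) lie by the dashed line of equal signal and PARP2 (1.65) above it, while most regions, HMOX1, NQO1 and FTH1 among them, lie well above the line.

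Ratios near 1, as at NDUFS7, PWP1 and TMEM131L but not PARP2, also occurred at other regions. Of the 30 regions with a ratio within 1.5 times of 1, 21 had a vehicle level above 200 times background, higher than any of the 4. All regions above that level had a ratio between 0.764 and 1.04. The 10 regions with a log2 ratio nearest to 0, taken over 2 and 2 libraries with the 4 left out, included 4 on chromosome 16 between 183799 and 192099 bp from SHCBP1, with 166 to 237 tags with CDDO-Im and 148 to 216 tags with vehicle. Others were on chromosome 1 (40 and 48 tags with CDDO-Im, 39 and 42 with vehicle), on chromosome 2, at DUX4 and near FRG2B. Those on chromosomes 1 and 2 lay 3703823 and 526007 bp from the nearest protein-coding gene. Whether reads at these regions map to a single place was not tested. The last 2 were at heat shock genes. HSPA2 had 20 and 18 tags with CDDO-Im against 15 and 19 with vehicle, a ratio of 1.014. HSPA1B had 15 and 17 tags against 12 and 15, a ratio of 1.07, and has a near-identical neighbouring copy, so its tags are uncertain. The groups overlapped in all 10.

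Summit position, which the choice of genes did not use, varied in different degree among them. All 4 summits at TMEM131L lay within 5 bp of each other and those at NDUFS7 within 11 bp. Of the 230 regions, 6 had summits within 5 bp and 17 within 11 bp, those 2 included, where the median range was 36.5 bp. PWP1 summits spanned 37 bp, and PARP2 summits 111 bp, a range that 220 of the 230 regions did not exceed. At PARP2, vehicle 1 stood apart from the other 3 libraries, nearer to PARP2. EEF1A1 summits spanned 139 bp over 3 libraries. The mean summit with CDDO-Im minus that with vehicle was 3.00 bp at NDUFS7 (exact permutation p = 1, two-sided), -49.0 bp at PARP2 (exact permutation p = 0.667), -17.0 bp at PWP1 (exact permutation p = 0.667) and -1.50 bp at TMEM131L (exact permutation p = 1). The adjusted p over these 4 exact tests was 1 for each, and 2 libraries against 2 cannot give a p under 0.33.

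**Figure D4:**
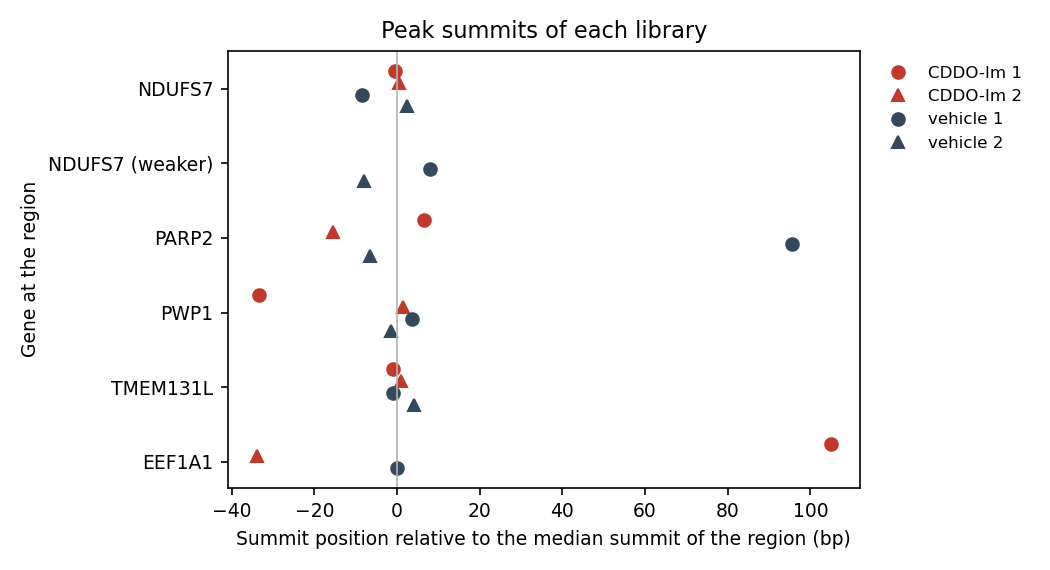
The position of each library's peak summit is shown relative to the median summit of its region (x axis, bp) for the 6 regions at the 5 genes. Summits fall within 5 bp at TMEM131L and 11 bp at NDUFS7, while vehicle 1 at PARP2 and CDDO-Im 1 at EEF1A1 lie far from the others.

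Local background and peak width come from the same peak calls as the signal, so they are given as a description. Over the 230 regions, local background agreed within 1.1 times between CDDO-Im 1 and vehicle 1 in 77.0% and between CDDO-Im 2 and vehicle 2 in 80.4%, but in 21.7% to 24.3% for every other pair of libraries. NDUFS7 and PARP2 followed this, and PWP1 did so for number 2 alone. TMEM131L cannot show it, since its local background was at the genome-wide level in all libraries, as in 16.5% to 17% of the regions in each library. Peaks at PARP2 were 436 and 485 bp wide with CDDO-Im and 459 and 170 bp with vehicle, where the medians of the 230 regions were 377 and 406 bp with CDDO-Im and 268 and 252.5 bp with vehicle. Those at NDUFS7 were 374 and 317 bp wide with CDDO-Im and 364 and 298 bp with vehicle. TMEM131L peaks were 379 and 185 bp wide with CDDO-Im and 210 and 304 bp with vehicle.

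Regions at other genes of the same complexes and families were counted without a test. Over all protein-coding genes 0.801% had a region of all 4 libraries, 5.79% one of both CDDO-Im libraries, 0.811% one of both vehicle libraries and 16.5% a peak in any library. Of 37 complex I genes, 1 had a region of all 4 libraries (NDUFS7), and 4 (10.8%) had a peak in any library (NDUFS4, NDUFS7, NDUFV1 and NDUFAB1). Of 16 PARP family genes, 1 had a region of all 4 libraries (PARP2), PARP15 had one that both CDDO-Im libraries listed, and 6 (37.5%) had a peak in any library. Of 14 WD-repeat genes of ribosome biogenesis only PWP1 had any peak, and of the pair TMEM131 and TMEM131L only TMEM131L did. Of 9 translation elongation genes 0 had a region of all 4 libraries, and EEF1A1 and EEF2 had a peak. Of 14 highly transcribed genes, EEF1A1 and LDHA had one that both CDDO-Im libraries listed, and 0 had one that both vehicle libraries listed. A peak in any library was listed at 6 of these 14 (42.9%). Of 12 known NRF2 targets, 4 had a region of all 4 libraries (HMOX1, NQO1, FTH1 and SLC48A1), and 9 one of both CDDO-Im libraries. At SLC48A1, a heme transporter gene, 22 and 44 tags with CDDO-Im stood against 11 and 10 with vehicle, a ratio of 2.68.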

How the data were processed

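NRF2 ChIP-seq peak lists of 2 CDDO-Im and 2 vehicle libraries of HMC3 cells were used. The submitters' processing notes name MACS2 2.2.7.1, BWA 0.7.17 and bcl2fastq 2.15.0 as tools, and GRCm38 beside hg38 as a build. The sources used here do not give the control, threshold, fragment length or treatment of duplicates. The deposited lists, 1 per library, give a fold enrichment (ratio) per peak, a −log10 p and a −log10 q, and the offset of the summit. The deposited score is that −log10 q times 10 without its decimals. These are the authors' values.

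Tags were recovered by taking fold as tags plus 1 over local background plus 1, and p as a Poisson probability of more tags. A whole number of tags matched 100% of peaks within 0.001 plus 0.0002 of the value, with a single match for 97.7% to 99.4% per library and for 20 of the 21 peaks described. For the other, PARP2 in CDDO-Im 1, the nearest match (15) was taken over 14, whose local background would lie under the genome-wide one. Library totals are not in the lists, so the lowest recovered background served as the genome-wide background and the depth.

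Peaks on chromosomes 1 to 22 and X that overlapped by at least 1 bp were joined into regions. Megabases holding more than 20 regions (77 in all) were set apart as dense. Genes and promoters came from RefSeq on GRCh38.p14. Ratios are of geometric means. Recovery and region calls were run on simulated data (Python 3.11.15, scipy 1.17.1). Those data used the same formulas, and the region step had no counting error or spread between replicates. The simulation therefore checks the code only.

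The genes, lists and rules were chosen with earlier results of these data known. Every region of the 5 genes is described. Also named are genes within 10 kb of a region, HMOX1, NQO1 and FTH1, list genes with a region of all 4 libraries, and the 10 regions with a log2 ratio nearest to 0. No regions of all 4 libraries other than the main ones lay at the 5 genes, so the test planned for them was not run. Peak sequences outside promoter windows were not analysed here. Alternatives were other depth measures, signal scales, windows and thresholds, same-numbered pairs, and leaving out each library.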

Additional observations from a re-analysis of the deposited data

How the results depend on the processing

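Of 90 alternative values, 80 moved by less than the spread between replicates or, for counts and shares, by at most 1.5 times, and 10 moved more. With recovered tags and no depth correction, the ratio was 1.05 at NDUFS7 and 1.14 at EEF1A1. The share of regions with both CDDO-Im libraries above both vehicle libraries was 47.8% with dense megabases included, and 68.4% at a −log10 q of at least 10. Leaving out 1 library at a time gave ratios of 0.872 to 1.03 at NDUFS7, 0.932 to 2.92 at PARP2, 0.864 to 1.40 at PWP1, 0.752 to 0.952 at TMEM131L and 0.982 to 1.09 at EEF1A1, which has no value without vehicle 1. The regions with CDDO-Im above vehicle then numbered 0 to 2 of 4, and the share over all regions was 87.2% to 91.2%. Peaks inside the gene numbered 0 at PARP2, TMEM131L and EEF1A1, and at a −log10 q of at least 10 there was 1 at PWP1 and 0 at EEF1A1.

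With the replicate block (same-numbered pairs), 0 of the 4 regions and 87.8% of all 230 had each CDDO-Im library above the vehicle library of its number, and the ratios were unchanged by construction (0.946, 1.65, 1.1 and 0.846). Over the 230 regions, replicate differences of the 2 groups correlated with r = -0.04. A correlation over regions cannot show a shift common to all regions of a library. The median of library 2 over library 1 was 1.40 with CDDO-Im and 1.13 with vehicle. The correlation therefore does not settle whether the numbers pair the samples. Local backgrounds matched by number, with medians over genome-wide background of 1.429 in CDDO-Im 1 and vehicle 1 and 1.468 in CDDO-Im 2 and vehicle 2. These backgrounds come from the peak calls, whose control is not given, so their match does not show that the samples were paired.

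Few tags limit PWP1 and EEF1A1 most.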

Other observations

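The gene-end regions of all 4 libraries hold values not given above, and their genes were chosen after the values were seen. Of the 230 regions, 9 (3.91%) had a summit at most 1000 bp from where a protein-coding gene starts or ends, and PARP2 and TMEM131L were 2 of the 9. The median of their CDDO-Im to vehicle ratios was 1.40, against 3.24 for the 221 other regions. With PARP2 and TMEM131L left out, the 7 remaining had a median of 1.40 and a range of 0.801 to 4.73. At HSPA1A and HSPA1B, the near-identical genes of inducible HSP70 chaperones whose tags are uncertain, 4 regions had ratios of 0.801, 1.07, 1.13 and 1.40. In the region with a ratio of 1.40, at HSPA1A, both CDDO-Im libraries (17 and 17 tags) lay above both vehicle libraries (12 and 10 tags). That was also so at the other 3 regions, which were CEBPZOS (19 and 40 tags with CDDO-Im, 8 and 9 with vehicle, a ratio of 2.93), IFRD1, a transcriptional co-regulator gene (62 and 94 against 11 and 20, a ratio of 4.65), and NQO1. Both CDDO-Im libraries thus lay above both vehicle libraries at 4 of the 9 regions, against 196 of the 221 others. The ratio lay within 1.5 times of 1 at 5 of the 9, against 25 of the 221. The choice of genes partly set these counts, since PARP2 and TMEM131L are among the 9 and NDUFS7 and PWP1 among the 221. With those genes left out, both CDDO-Im libraries lay above at 4 of 7 regions, against 196 of 219. The ratio then lay within 1.5 times of 1 at 4 of 7, against 23 of 219. The 9 regions held both kinds of ratio, and 4 of them lay at the near-identical HSPA1A and HSPA1B. No test was run.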
